A study of Mus musculus with 12 samples.

Results

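Mab21l1, Tmem47 and Sox11 are 3 genes that were expressed in the control line of mouse embryonic fibroblasts (MEFs) and nearly silent in a line edited in the genes of TFEB and TFE3. They were picked for that pattern, 3 of the 24421 genes in the table: their counts in Null against DKO cells, with and without etoposide, chose them. The difference between the genotypes is therefore described for these 3 genes and not tested, and so is their response to etoposide, which rests on the same libraries. Total RNA was sequenced from 12 libraries in 4 groups of 3, namely Null MEFs and DKO MEFs, each untreated or treated with etoposide. Null is the label of the cells that the study's text calls WT, and DKO stands for the CRISPR-edited TFEB/TFE3 line. Etoposide, a topoisomerase II poison that causes DNA breaks, was given at 100 µM for 8 h, and the control cells are labelled untreated although the methods name DMSO. The MEFs were immortalized with SV40 according to the paper. Each genotype was 1 line, so a difference between genotypes and a difference between lines cannot be told apart. The labels do not say whether replicates were separate cultures, so the p-values measure only the spread between these libraries. In bulk samples such as these, fewer cells of a type and less RNA per cell cannot be told apart either. The libraries held 45577023 to 104120871 counts on genes, with a median of 71634158. Levels are given in CPM, counts relative to the TMM-scaled library total, a scale on which 3 counts correspond to 0.0298 to 0.0607 CPM depending on the library.

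TFEB and TFE3 belong with MITF and TFEC to the MiT/TFE family of basic helix-loop-helix transcription factors, which switch on lysosomal and autophagy genes through short E-box elements in promoters. The 3 genes come from different families: MAB21L1 has the fold of the nucleotidyltransferase cGAS and is needed for eye development, TMEM47 is a four-pass membrane protein of cell junctions related to PMP22 and the claudins, and SOX11 is a group C SOX transcription factor that acts with SOX4 and SOX12 in neural and mesenchymal progenitors. Embryonic fibroblasts are a mixed mesenchymal population in which developmental genes of this kind can be active according to where in the embryo the cells came from.

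On GRCm38 the 3 genes lie on 3 chromosomes. Mab21l1 (ENSMUSG00000056947.5, chr3:55782510-55785001, plus strand) and Sox11 (ENSMUSG00000063632.6, chr12:27334264-27342574, minus strand) each consist of 1 exon block, 2492 and 8311 bases long, and Tmem47 (ENSMUSG00000025666.16, chrX:81070698-81097872, plus strand) has 3 exon blocks with 4025 bases. The table of RefSeq promoters of GRCm38.p6 used here held 2 of the 3 members, Tmem47 (chrX:81070394-81070643, plus strand) and Sox11 (chr12:27342719-27342968, minus strand), and no entry for Mab21l1. The 250 bases before each RefSeq start are shown because these genes are nearly silent in cells edited in E-box binding factors, with the E-box letters CACGTG in capitals. The RefSeq starts differ from the gene starts printed above, which lie further downstream for both genes.
Tmem47: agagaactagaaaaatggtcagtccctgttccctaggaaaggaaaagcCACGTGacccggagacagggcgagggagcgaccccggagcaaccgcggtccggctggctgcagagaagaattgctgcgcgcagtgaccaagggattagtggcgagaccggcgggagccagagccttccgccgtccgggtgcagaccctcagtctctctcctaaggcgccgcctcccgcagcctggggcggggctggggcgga
Sox11: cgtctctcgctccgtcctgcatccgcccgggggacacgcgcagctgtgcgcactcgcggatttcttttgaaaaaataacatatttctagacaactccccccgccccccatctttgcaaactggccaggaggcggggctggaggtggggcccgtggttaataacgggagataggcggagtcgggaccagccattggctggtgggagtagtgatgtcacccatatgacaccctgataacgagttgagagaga
CACGTG reads the same on both strands, and it stood once in the Tmem47 window, 202 to 197 bases before the RefSeq start. No CACGTG was found in the Sox11 window, and TCATGTG, a further E-box form searched on both strands, was in neither. CACGTG was present in 6.02% of all 32851 promoters of this length, in 7.89% of the 14330 promoters of genes tested, and in 4 of the 83 promoters (4.82%) of the genes that were off in DKO as defined further on; TCATGTG was present in 3.25% of all promoters, in 1.81% of those of genes tested and in 3 of the 83 (3.61%). These shares count promoters and not genes. The 83 promoters belonged to 62 genes, so some genes off in DKO counted more than once and others had no promoter here. Both windows were rich in G and C, 65.6% with 21 CpG in Tmem47 and 58.0% with 17 CpG in Sox11, beside medians of 52.4% and 6 CpG over all promoters. A letter match is a description of the sequence and not a binding site.

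The genes targeted in the DKO line were read first. Tfeb stood at 38.9, 39.2 and 42.1 CPM in the 3 untreated Null libraries and at 4.60, 6.09 and 4.68 CPM in the untreated DKO libraries. After etoposide it stood at 11.4, 10.2 and 10.4 CPM in Null and at 1.92, 1.61 and 2.20 CPM in DKO. Every DKO library was below every Null library of the same treatment, with log2 fold changes of DKO against Null of −2.95 ± 0.10 (SE) untreated and −2.46 ± 0.12 after etoposide. It fell with etoposide in both lines, by log2 fold changes of −1.91 ± 0.10 in Null and −1.42 ± 0.13 in DKO. Tfe3 stood at 115, 109.9 and 114 CPM in untreated Null and at 94.1, 93.1 and 91.0 CPM in untreated DKO libraries, a log2 fold change of −0.29 ± 0.04. After etoposide Tfe3 was at 68.5, 69.6 and 68.1 CPM in Null and at 70.7, 71.2 and 63.4 CPM in DKO, where the groups overlapped. A CRISPR edit can inactivate a protein and leave its transcript in place, so the Tfe3 level does not check the label in the way the Tfeb level does. Of the other MiT/TFE genes, Mitf was higher in untreated DKO libraries (42.9, 42.5 and 44.4 CPM) than in untreated Null libraries (8.63, 9.14 and 8.94 CPM), with a log2 fold change of 2.28 ± 0.05. After etoposide the order was the opposite, 23.2, 22.6 and 22.3 CPM in Null and 14.6, 13.1 and 14.2 CPM in DKO (−0.70 ± 0.05). Tfec had 0 counts in all 6 untreated libraries, 11, 2 and 3 counts in Null after etoposide and 0, 2 and 0 counts in DKO after etoposide.

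Sox11 is the transcription factor gene of the 3. It had 7666, 6392 and 6172 counts in the untreated Null libraries, which is 94.2, 98.2 and 95.3 CPM, and 8, 28 and 21 counts in the untreated DKO libraries, which is 0.120, 0.304 and 0.352 CPM. After etoposide it had 2587, 2778 and 2287 counts in Null (31.6, 33.6 and 33.4 CPM) and 12, 14 and 11 counts in DKO (0.243, 0.191 and 0.109 CPM). Sox11 was thus high in the untreated Null libraries, at a lower level in the treated Null libraries and near 0 in all 6 DKO libraries, and no DKO library came near a Null library. Tmem47, the junction protein gene, had 2916, 2475 and 2644 counts in untreated Null (35.8, 38.0 and 40.8 CPM) and 5, 14 and 11 counts in untreated DKO libraries (0.0752, 0.152 and 0.185 CPM). In treated Null libraries it had 2421, 2197 and 1826 counts (29.5, 26.6 and 26.6 CPM), and in treated DKO libraries 5, 10 and 11 counts (0.101, 0.137 and 0.109 CPM). The Null values of Tmem47 without and with etoposide did not overlap, while the DKO values overlapped. Mab21l1 had 1212, 927 and 912 counts in untreated Null (14.9, 14.2 and 14.1 CPM) and 14, 12 and 6 counts in untreated DKO libraries (0.211, 0.130 and 0.101 CPM). After etoposide it had 3587, 3319 and 2546 counts in Null (43.8, 40.2 and 37.1 CPM) and 8, 15 and 11 counts in DKO (0.162, 0.205 and 0.109 CPM). Treated Null libraries were the highest for Mab21l1, and its DKO values with and without etoposide overlapped.

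Counts in DKO cells were low but above the 3-count limit in each library for all 3 genes, between 5 and 28, so the genes were nearly silent and not undetected. Summed over 3 libraries, the 95% Poisson interval of the level in untreated DKO cells was 0.10 to 0.207 CPM for Mab21l1, 0.0928 to 0.196 CPM for Tmem47 and 0.198 to 0.339 CPM for Sox11. In treated DKO cells it was 0.105 to 0.213, 0.0760 to 0.171 and 0.117 to 0.228 CPM in the same order. These intervals cover counting error only and overlap between treated and untreated cells for each gene. Between genes, levels were compared per kilobase of exon. On that scale untreated Null cells had 11.5 ± 0.250 CPM per kb of Sox11 (mean ± SD, n = 3), 9.5 ± 0.623 of Tmem47 and 5.78 ± 0.172 of Mab21l1, an order in which neighbours differed by more than their SD. Treated Null cells showed the opposite order, 16.2 ± 1.33 CPM per kb of Mab21l1, 6.85 ± 0.421 of Tmem47 and 3.95 ± 0.134 of Sox11. Untreated DKO cells had 0.0591 ± 0.0228 CPM per kb of Mab21l1, 0.0341 ± 0.0139 of Tmem47 and 0.0312 ± 0.0147 of Sox11, and the last pair did not differ beyond their SD. Treated DKO cells had 0.0637 ± 0.0192, 0.0287 ± 0.00461 and 0.0218 ± 0.00811 CPM per kb in the same order, and there too Tmem47 and Sox11 did not differ beyond their SD.

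**Figure D1:**
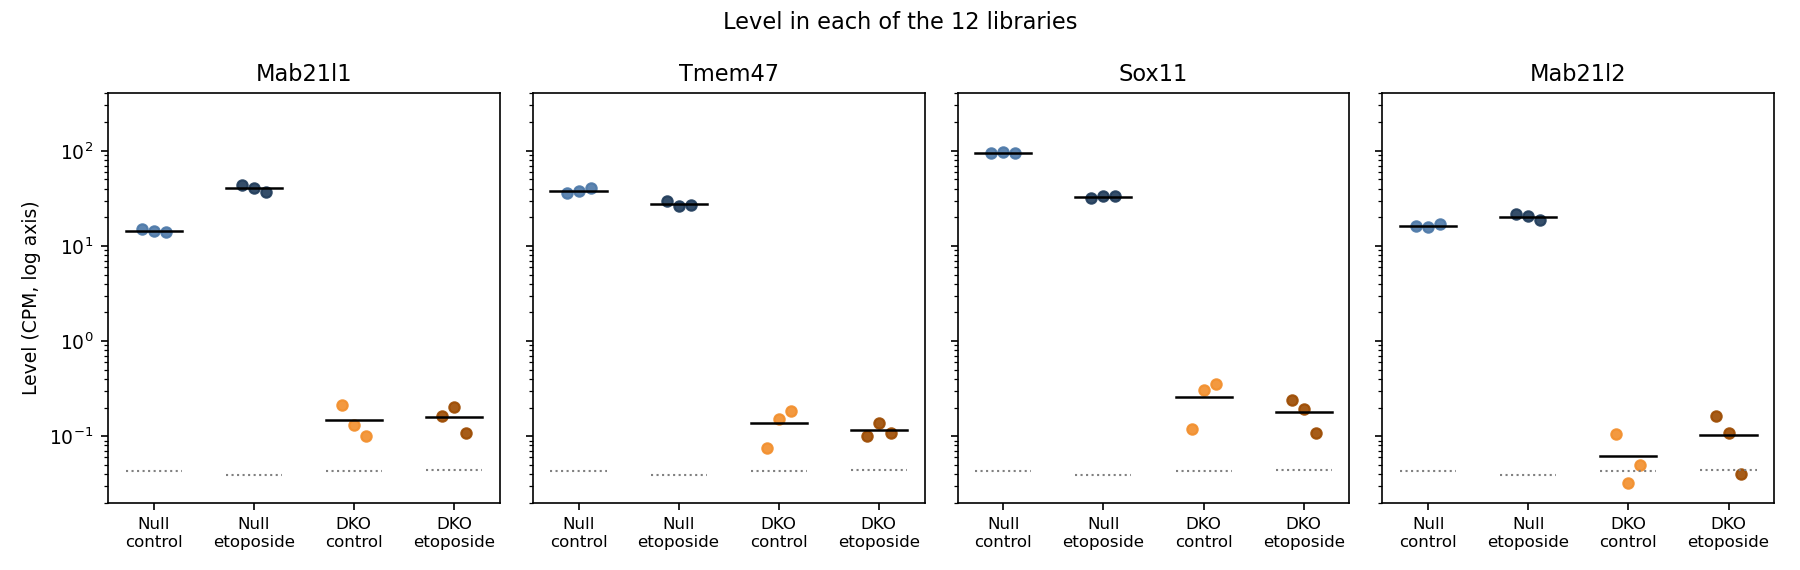
Level of Mab21l1, Tmem47, Sox11 and the relative Mab21l2 in each of the 12 libraries, in CPM on a log axis, by group; each point is 1 library, the black line is the mean of 3 and the dotted line is the level of 3 counts. For Sox11 the Null libraries lie between 31.6 and 98.2 CPM and the DKO libraries between 0.109 and 0.352 CPM.

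Without etoposide the mean Null level was 370.4 times the mean DKO level for Sox11, 278.5 times for Tmem47 and 97.9 times for Mab21l1, with log2 fold changes of DKO against Null of −8.51, −8.10 and −6.60. After etoposide the ratio was 254 for Mab21l1, 239 for Tmem47 and 181 for Sox11, with log2 fold changes of −8.03, −7.87 and −7.61. Even the lowest Null library was 66.9 times the highest DKO library for Mab21l1 without etoposide, 194 times for Tmem47 and 267 times for Sox11. After etoposide these ratios of the closest libraries were 181, 195 and 130.02 in the same order. Among the 9353 genes that averaged 10 CPM or more across all 12 libraries, the 3 genes held places 1, 2 and 3 from the lowest log2 fold change after etoposide and places 15, 3 and 1 without it, in the order Mab21l1, Tmem47 and Sox11. The next 3 genes after etoposide were Tmem37 (−7.60, 32.0 CPM in Null and 0.20 CPM in DKO), Bcam (−7.46, 77.9 and 0.455 CPM) and Cd34 (−7.09, 236 and 1.87 CPM), so no gap set Sox11 apart from Tmem37. All 3 members were lower in DKO in both treatments, beside 67.4% of the 15220 genes tested that passed an adjusted p of 0.05 without etoposide (33.4% higher in DKO and 34.1% lower) and 72.0% after it (36.9% higher and 35.2% lower). These comparisons chose the members, so nothing is read from that count or from the places above. The members reached the 10 CPM limit through the Null libraries. That limit left out genes with lower log2 fold changes after etoposide than any member, such as Hoxa5 (−8.31), Slc16a13 (−8.15) and Pctp (−8.05).

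Within Null cells, whose libraries also served in choosing the genes, the 3 genes did not all move the same way with etoposide, and no test is read from these changes. Mab21l1 rose in 3 of 3 treated libraries, by a log2 fold change of 1.49 ± 0.08 (SE) from a mean of 14.4 ± 0.428 (SD) to 40.4 ± 3.33 CPM. Tmem47 fell from 38.2 ± 2.51 to 27.6 ± 1.69 CPM, a log2 fold change of −0.47 ± 0.07, and Sox11 from 95.9 ± 2.08 to 32.9 ± 1.12 CPM, a log2 fold change of −1.55 ± 0.07, each with 3 of 3 treated libraries below all untreated ones. Over all 15220 genes tested, 78.4% passed an adjusted p of 0.05 in Null cells by the quasi-likelihood test of edgeR (Benjamini-Hochberg), 41.7% as higher and 36.8% as lower, with a median log2 fold change of 0.07. In DKO cells the means without and with etoposide were 0.147 ± 0.0569 and 0.159 ± 0.0479 CPM for Mab21l1, 0.137 ± 0.0562 and 0.116 ± 0.0185 CPM for Tmem47, and 0.259 ± 0.122 and 0.181 ± 0.0674 CPM for Sox11. The log2 fold changes there were 0.06 ± 0.34, −0.24 ± 0.35 (0.031 with library size alone as the scale) and −0.65 ± 0.33, again without a test. Over all genes 75.3% passed in DKO cells, 44.0% higher and 31.3% lower, with a median log2 fold change of 0.14.

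The standard errors in DKO cells, 0.33 to 0.35, came from 5 to 28 counts per library. Leaving out single libraries put the log2 fold change of Sox11 in DKO cells between −0.98, without untreated DKO replicate 1, and −0.31. The sign for Mab21l1 in DKO cells also turned when single libraries were left out, with log2 fold changes of −0.09 and −0.11 without untreated DKO replicate 2 or 3 and −0.22 without treated DKO replicate 2. Whether the responses differ between the genotypes was not tested.

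**Figure D2:**
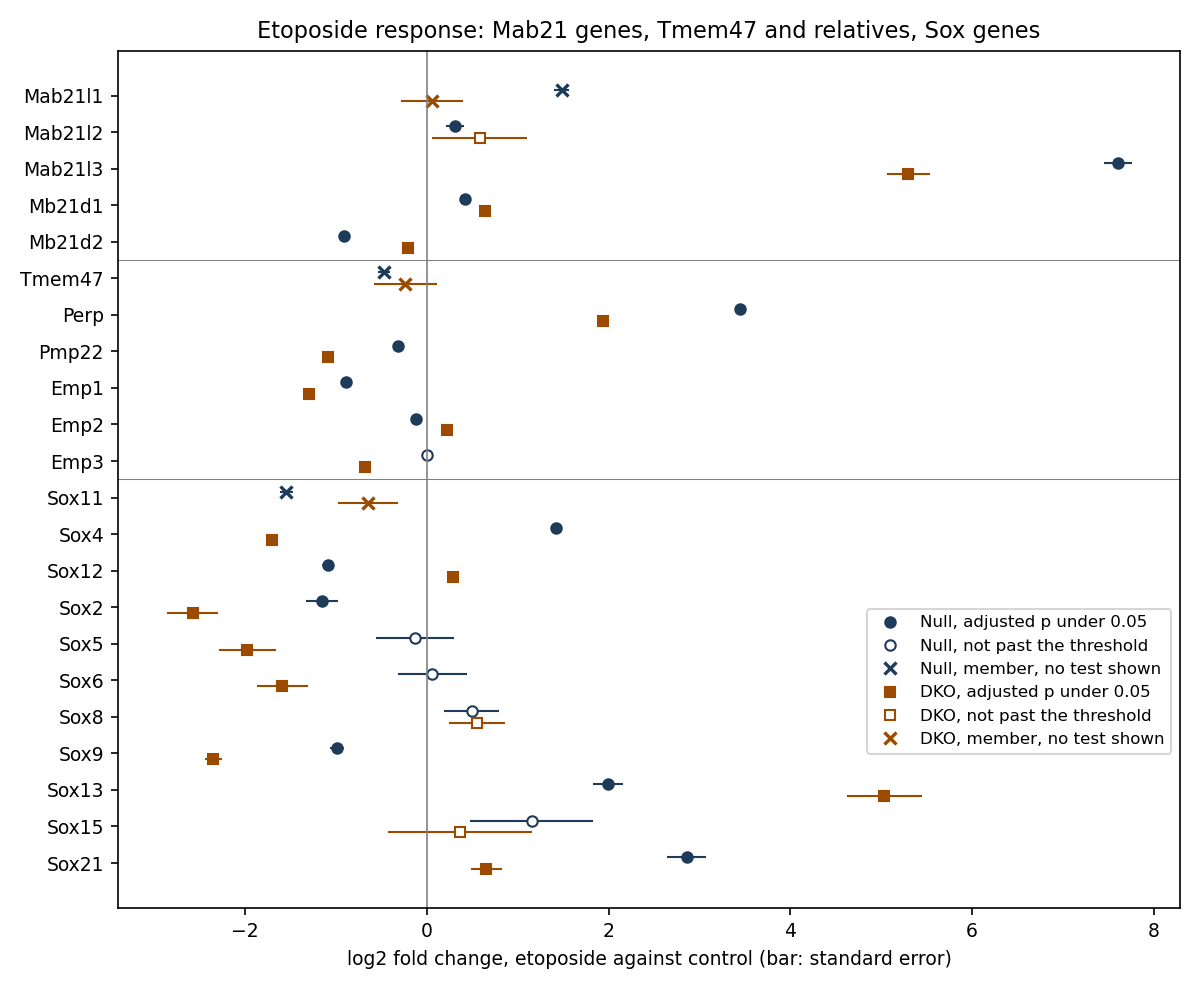
Log2 fold change of etoposide against untreated in Null (circles) and DKO cells (squares) for the Mab21 genes, Tmem47 with its relatives, and the Sox genes; bars are 1 SE, filled symbols passed an adjusted p of 0.05, and crosses mark the 3 members, for which no test is shown. Mab21l1 lies at 1.49 in Null and 0.06 in DKO cells, Sox11 at −1.55 and −0.65.

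Mab21l1 and its closest relative Mab21l2 sit in the same kind of place, each a 1-exon gene inside a large gene on the opposite strand. Nbea, which encodes neurobeachin, a protein of membrane traffic, shares 981 of the 2492 exon bases of Mab21l1 (39.4%), and Lrba, its paralog, shares 1097 of the 3049 exon bases of Mab21l2 (36.0%). The library kit marks strand but the strand setting of the counting is not stated, so reads in these stretches are uncertain, as are those in the 463 of 4025 exon bases (11.5%) that Tmem47 shares with the antisense transcript Gm26775. No annotated exon overlaps Sox11. For the same reason reads are uncertain in other genes named here, with a shared part of 46.5% of exon bases in Twist2, 36.2% in Jam3, 19.6% in Hand2 and 18.8% in Sox21. Smaller parts were shared in others, among them Sox5, Sox8, Tfap2a, Runx2, Ncam1, Shox2, Mb21d1, Sox15, Cd34, Bcam, Gyk, Map2 and Dclk1. Nbea stood at 57.0, 59.5 and 56.4 CPM in untreated Null and 43.6, 44.6 and 47.8 CPM in untreated DKO libraries. With etoposide it stood at 26.8, 23.4 and 24.5 CPM in Null and 31.2, 31.3 and 29.0 CPM in DKO. The host gene of Mab21l1 was therefore expressed in all 12 libraries, with log2 fold changes of DKO against Null of −0.35 ± 0.05 untreated and 0.29 ± 0.05 after etoposide, while Mab21l1 was near 0 in DKO cells. It fell with etoposide in both lines (−1.21 ± 0.05 in Null and −0.57 ± 0.05 in DKO), in Null cells opposite to Mab21l1.

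Mab21l2 showed the pattern of the members although it is not one of them. It had 1321, 1032 and 1097 counts in untreated Null (16.2, 15.9 and 16.9 CPM) and 7, 3 and 3 counts in untreated DKO libraries (0.105, 0.0326 and 0.0503 CPM). After etoposide it had 1759, 1685 and 1299 counts in Null (21.5, 20.4 and 18.9 CPM) and 8, 8 and 4 counts in DKO (0.162, 0.109 and 0.0397 CPM). All Null libraries were above all DKO libraries, with log2 fold changes of −8.06 ± 0.21 without and −7.79 ± 0.19 after etoposide. The treated Null libraries were above the untreated ones, a rise of 0.31 ± 0.10 on the log2 scale, which limma-trend did not call and which lost its call without treated Null replicate 1 (0.26). Its host gene Lrba was much lower in DKO cells as well, but not silent. Untreated it stood at 92.1, 87.6 and 88.9 CPM in Null and 4.87, 5.80 and 5.45 CPM in DKO, and after etoposide at 45.3, 43.2 and 38.8 CPM in Null and 6.62, 6.56 and 7.37 CPM in DKO. That is −4.05 ± 0.07 and −2.62 ± 0.07 on the log2 scale for DKO against Null, with etoposide responses of −1.08 ± 0.06 in Null and 0.35 ± 0.08 in DKO.

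Of the other Mab21 genes, Mab21l3 was nearly absent from untreated cells of both lines (0.410 CPM in Null and 0.113 CPM in DKO) and rose with etoposide to 82.8 CPM in Null and 4.82 CPM in DKO, log2 fold changes of 7.60 ± 0.15 and 5.30 ± 0.24. Cgas, listed as Mb21d1, encodes the DNA sensor that makes cGAMP; it was at 49.3 and 48.5 CPM in untreated Null and DKO cells and rose to 65.8 and 75.6 CPM (0.42 ± 0.04 and 0.64 ± 0.04). Mb21d2 fell with etoposide in Null cells from 21.6 to 11.5 CPM (−0.91 ± 0.06) and in DKO cells from 17.2 to 14.8 CPM (−0.21 ± 0.06, but 0.061 with library size alone as the scale). Mab21l4, listed as 2310007B03Rik, had at most 2 counts in any untreated library and up to 25 after etoposide. Of the 5 family genes besides Mab21l1, all tested, etoposide moved 4 up and 1 down in Null cells and 3 up and 1 down in DKO cells, with medians of 0.42 and 0.64. Over all genes it moved 41.7% up and 36.8% down in Null and 44.0% and 31.3% in DKO cells, with medians of 0.07 and 0.14. Between the lines 3 were lower in untreated DKO cells and the others did not pass the threshold (median −0.83), and 2 were higher and 2 lower after etoposide (median −0.77). The untreated median falls on Mab21l4, which was at the detection limit in both lines. The median after etoposide falls on Mab21l4 too, which did not pass the threshold there, so nothing is read from either median. Over all genes 33.4% were higher and 34.1% lower without etoposide (median −0.02) and 36.9% and 35.2% after it (median −0.00).

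Among the Sox genes, the group C partners of Sox11 remained expressed in DKO cells. Sox4 was at 94.5 ± 2.40 CPM in untreated Null and 248 ± 10.0 CPM in untreated DKO cells, and after etoposide at 253.5 ± 15.1 CPM in Null and 76.0 ± 3.30 CPM in DKO cells. It thus rose with etoposide in Null (1.42 ± 0.05) and fell in DKO cells (−1.71 ± 0.05), and it was above Null in untreated DKO cells (1.39 ± 0.05) and below Null after treatment (−1.74 ± 0.05); 54.6% of its exon bases overlap an antisense transcript. Sox12 was at 43.7 ± 1.87 CPM in untreated Null and 17.8 ± 1.09 CPM in untreated DKO cells (−1.30 ± 0.06), and at 20.5 ± 1.12 and 21.7 ± 1.05 CPM after etoposide. Its etoposide response was −1.09 ± 0.06 in Null and 0.29 ± 0.06 in DKO cells. Sox13, a group D gene, came closest to the members: 3.29 CPM in untreated Null against 0.0346 CPM in untreated DKO cells (−6.60 ± 0.35), but 13.1 against 1.16 CPM after etoposide (−3.56 ± 0.19), with rises of 1.99 ± 0.17 in Null and 5.03 ± 0.42 in DKO cells. Sox2, a gene of neural progenitors, was lower in DKO cells in both treatments, 6.68 against 1.04 CPM (−2.67 ± 0.19) and 3.00 against 0.171 CPM (−4.10 ± 0.26). Sox9, which directs cartilage formation, was also lower, 29.3 against 20.3 CPM (−0.53 ± 0.08) and 14.8 against 4.04 CPM (−1.89 ± 0.09). The cartilage genes Sox5 and Sox6 went the other way, 0.362 against 4.16 CPM (3.55 ± 0.36) and 0.327 against 3.55 CPM (3.41 ± 0.32) untreated, and so did Sox21, 0.567 against 3.86 CPM (2.74 ± 0.21). Sox8 and Sox15 were low throughout, with at most 1.05 and 0.267 CPM on average in a group.

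Of the 18 Sox genes besides Sox11, 10 passed the filter on low counts and 8 did not. Etoposide moved 3 of the 10 up and 3 down in Null cells (median 0.28, or 0.44 with library size alone as the scale; all genes 41.7% up, 36.8% down, median 0.07) and 3 up and 5 down in DKO cells (median −0.65, or −0.38 on that scale; all genes 44.0% up, 31.3% down, median 0.14). In DKO against Null cells 4 were higher and 4 lower without etoposide (median −0.33; all genes 33.4% and 34.1%, median −0.02) and 3 higher and 4 lower after it (median −0.73; all genes 36.9% and 35.2%, median −0.00). Among these 10, calls went both ways in each comparison.

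The relatives of Tmem47, the PMP22, EMP and PERP membrane proteins, were expressed in both lines. Perp, a p53 target of desmosomes and cell death, rose from 48.6 to 531 CPM in Null and from 26.6 to 102 CPM in DKO cells (3.45 ± 0.05 and 1.94 ± 0.05) and was lower in DKO cells in both treatments (−0.87 ± 0.04 and −2.38 ± 0.04). Pmp22 and Emp1 were higher in untreated DKO cells, 67.5 against 43.6 CPM (0.63 ± 0.04) and 834 against 555 CPM (0.59 ± 0.04), and both fell with etoposide in both lines. Emp2 was higher in DKO cells without etoposide, 181 against 106 CPM (0.76 ± 0.04), and after it (1.09 ± 0.04), with etoposide responses of −0.11 ± 0.04 in Null, which becomes 0.054 with library size alone as the scale and is not past the threshold with DESeq2, and 0.22 ± 0.04 in DKO cells. Emp3 stood at 61.6 and 61.7 CPM in Null cells without and with etoposide and fell from 74.0 to 46.2 CPM in DKO cells (−0.68 ± 0.04). Of the 6 relatives 5 were tested, and Lim2, a lens protein gene, was not, with at most 4 counts in a library. Etoposide moved 1 up and 3 down in Null (median −0.11, or 0.054 with library size alone as the scale; all genes 41.7% up, 36.8% down, median 0.07) and 2 up and 3 down in DKO cells (median −0.68, or −0.41 on that scale; all genes 44.0% up, 31.3% down, median 0.14). In DKO against Null 4 were higher and 1 lower untreated (median 0.59; all genes 33.4% and 34.1%, median −0.02) and 2 higher and 3 lower after etoposide (median −0.14; all genes 36.9% and 35.2%, median −0.00).

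The members' pattern was shared by other genes. Called off in DKO was a gene with at least 2 CPM in each of the 6 Null libraries and at most 0.5 CPM in each of the 6 DKO libraries. The rule was met by 91 of 24421 genes (0.373%), all 3 members among them, and its mirror image, off in Null, by 3 genes (0.0123%): Casp1 (4.69 CPM on average in DKO libraries), which encodes an inflammatory protease, Gm1966 (3.8 CPM) and Mtap7d3 (3.20 CPM). Since the pattern chose the members, nothing is read from their place among the 91. Ordered by mean CPM in Null libraries, which is not corrected for gene length, Sox11 came first with 64.4 CPM, followed by Cyba with 33.1, a subunit of the NADPH oxidase, Tmem47 with 32.9, Mab21l1 with 27.4 and Ctsc with 27.0, the gene of a lysosomal protease. After these came Armcx4 with 24.9, Tmem37 with 22.3, Mmp16 with 21.6, Ptprg with 21.2 and Zdhhc15 with 19.8 CPM. Mab21l2 and Hand2, a transcription factor gene of limb, heart and branchial mesenchyme, were also among the 91, with 18.3 and 13.3 CPM. The median was 7.14 CPM, with 26 genes at 10 CPM or more and 30 under 5 CPM, and counts in single DKO libraries were between 0 and 47. The annotation gave 90 of them as protein coding and matched 1 to no gene. On the X chromosome, where Tmem47 lies, were 11 of the 91 (12.1%), beside 3.13% of the genes tested that the annotation placed on a chromosome.

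**Figure D3:**
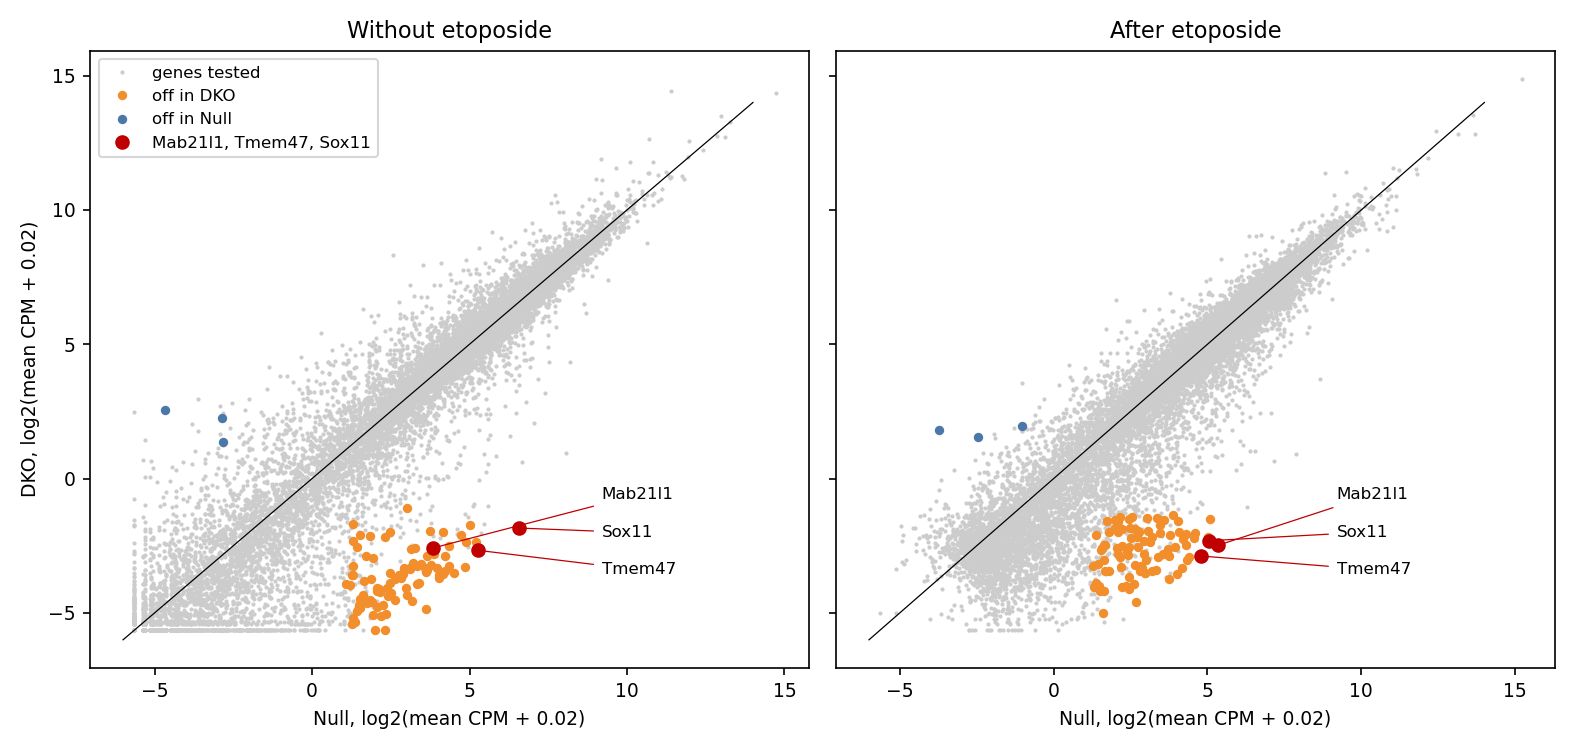
Mean level of each of the 15220 genes tested in DKO against Null libraries, both as log2 of CPM plus 0.02. The left panel shows means of the 3 untreated libraries of each line, the right panel those of the 3 treated libraries. Each point is 1 gene, the 3 members are red, the others of the 91 genes off in DKO orange and the 3 off in Null blue. In Null, Sox11, Tmem47 and Mab21l1 lie at 95.9, 38.2 and 14.4 CPM untreated and at 32.9, 27.6 and 40.4 CPM treated.

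The genes most like each member across the 12 libraries were found by Pearson's r of log2 CPM among the 11998 genes that averaged 1 CPM or more. The libraries fall into 4 groups, so a high r reflects mostly the 4 group means and is given as a description. For Sox11 they were Ndnf (r = 0.998), Dtna, Cul7, Peg10 and Msln (r = 0.994 for the last). Peg10, an imprinted gene of retrotransposon origin, had 131 and 69.6 CPM in Null without and with etoposide and 4.17 and 4.45 CPM in DKO, and Msln, the gene of the mesothelial surface protein mesothelin, had 106 and 83.4 CPM in Null and 21.5 and 19.1 CPM in DKO. Like Sox11, these genes were highest in untreated Null cells. For Tmem47 they were Nid1 (r = 0.997), Dtna, Col5a3, Rhbdf2 and Ganab (r = 0.996). Nid1, which encodes the basement membrane protein nidogen-1, had 103 and 68.7 CPM in Null and 1.5 and 1.44 CPM in DKO, and Dtna, the gene of the dystrophin partner dystrobrevin alpha, had 13.3 and 8.31 CPM in Null and 0.238 and 0.239 CPM in DKO. For Mab21l1 they included Tmem171 (r = 0.996), Adgre5, Nid2 and Pabpc4l (r = 0.995). Tmem171 had 3.37 and 6.09 CPM in Null and 0.444 and 0.436 CPM in DKO, and Nid2, which encodes nidogen-2, had 125 and 154.5 CPM in Null and 33.8 and 37.9 CPM in DKO. Dtna and Rhbdf2 were themselves off in DKO.

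Genes near the 3 members were read on both sides. Distances are between the lowest coordinates of 2 genes. Of the 3 genes tested nearest to each member on each side, 18 in all, 0 were off in DKO by level, a count that involves no test, beside 0.373% of all genes; Sohlh2, Tm4sf4 and Colec11 had under 2 CPM in Null cells and could not meet the rule. Without etoposide 8 of the 18 were higher in DKO cells by edgeR, 4 lower and 6 not past the threshold, and after it 12, 3 and 3; of all genes 33.4% were higher and 34.1% lower without etoposide and 36.9% and 35.2% after it. Around Sox11 lie 2 genes of the interferon response, Cmpk2 and Rsad2, 0.865 and 0.892 Mb away, and both were higher in untreated DKO cells, 22.8 against 6.93 CPM (1.72 ± 0.11) and 39.7 against 12.4 CPM (1.67 ± 0.10). Id2, an inhibitor of helix-loop-helix factors 2.24 Mb away, was lower, 24.4 against 51.6 CPM (−1.08 ± 0.05), and so was Rps7 on the other side (−0.26 ± 0.04). Colec11 and Rnaseh1, 1.26 and 1.32 Mb away, did not pass the threshold without etoposide. Tmem47 lies in a stretch with few genes tested: the nearest was Dmd, the dystrophin gene, 1.88 Mb away, at 11 CPM in untreated DKO against 4.60 CPM in untreated Null cells (1.25 ± 0.11). Prkx, Tbl1x, Tab3 and Gyk were also higher in untreated DKO cells, by 0.33 ± 0.03, 0.53 ± 0.04, 0.77 ± 0.05 and 0.21 ± 0.05 on the log2 scale, and Prrg1 was higher after etoposide (1.01 ± 0.06). Gyk was not past the threshold with library size alone as the scale (0.09). Around Mab21l1, besides Nbea, were Dclk1, a kinase gene of neurons (0.88 ± 0.05 untreated), Sohlh2 with at most 27 counts in a library, Tm4sf1 (−0.45 ± 0.05 after etoposide), Tm4sf4 (−2.21 ± 0.45 untreated, at 0.487 against 0.103 CPM) and the Hippo effector gene Wwtr1, at 293 and 294 CPM in untreated cells.

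Within 2 Mb of Mab21l1 were 18 genes tested, of which 3 were higher and 10 lower in untreated DKO cells (median −0.24, beside −0.26 for the 738 other genes tested on chromosome 3 and −0.02 for all), and 6 were higher and 5 lower after etoposide (median 0.04, all genes −0.00). Within 2 Mb of Sox11 were 8, of which 3 were higher and 2 lower untreated (median −0.05, beside −0.07 for the 503 other genes tested on chromosome 12) and 5 higher and 2 lower after etoposide (median 0.22). For Tmem47 the window held Dmd alone. The 471 other genes tested on the X chromosome had medians of 0.44 without and 0.50 after etoposide, above the −0.02 and −0.00 of all genes. Tmem47 was chosen for its low level in DKO cells, so nothing is read from its direction beside these medians. With etoposide against untreated, the medians around Mab21l1 were −0.22 in Null and −0.10 in DKO cells and around Sox11 0.12 and 0.28; with library size alone as the scale they were −0.057, 0.17 (turned), 0.28 and 0.55.

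**Figure D4:**
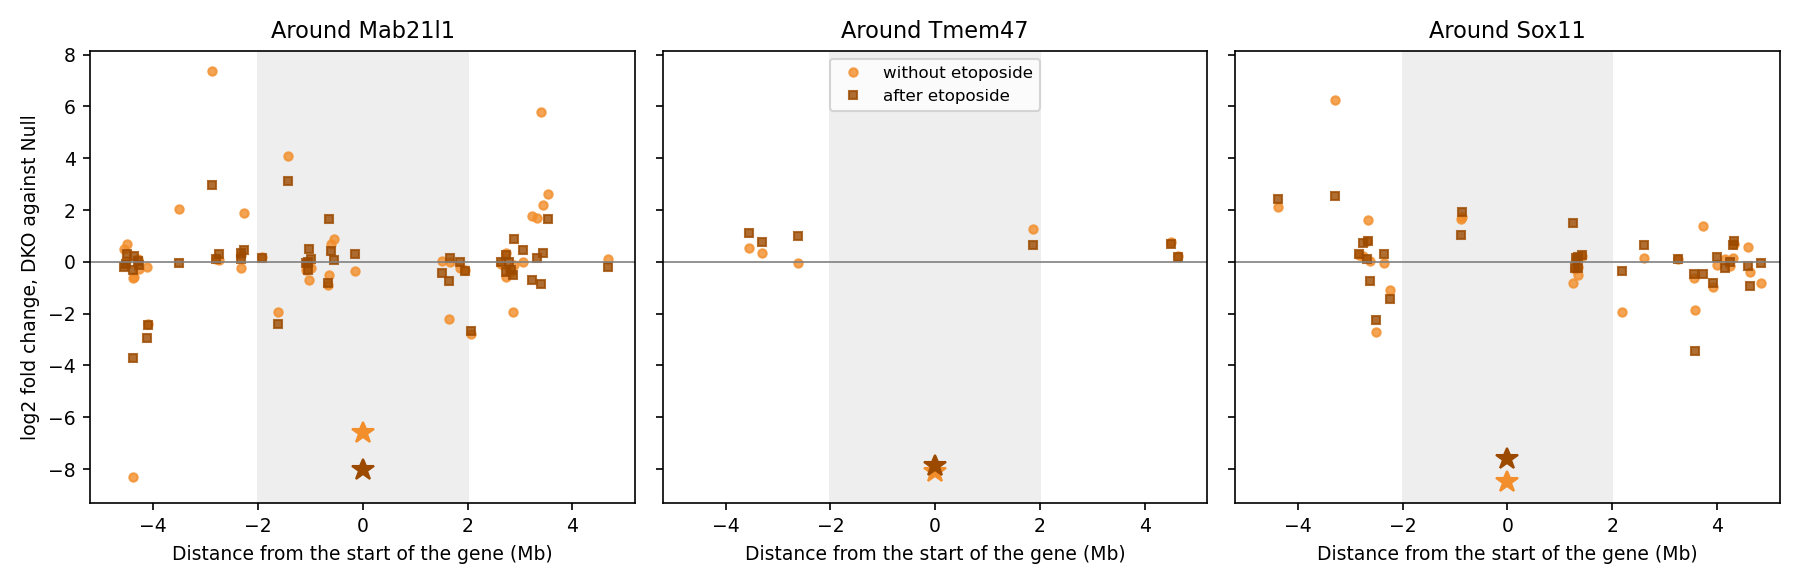
Log2 fold change of DKO against Null for the genes tested within 5 Mb of each member, by distance from the member's start in Mb; each point is 1 gene, the star is the member and the grey band spans 2 Mb to either side. The members lie at −6.60 to −8.51 without etoposide, while Dmd, the gene nearest to Tmem47, lies at 1.25.

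Lists of genes with related roles were counted in the same way. TMEM47 protein is found at cell junctions, and all 24 junction genes listed were tested. Etoposide moved 5 up and 16 down in Null cells (median −0.87; all genes 41.7% up, 36.8% down, median 0.07) and 7 up and 15 down in DKO cells (median −0.45; all genes 44.0% up, 31.3% down, median 0.14). With library size alone as the scale 8 moved up in Null cells, and the median in DKO cells was −0.17. In Null cells the polarity gene Pard3 fell from 96.6 to 26.6 CPM (−1.86 ± 0.04), the kinase gene Fyn from 60.6 to 17.5 CPM (−1.79 ± 0.04) and Afdn, listed as Mllt4, from 200.2 to 81.0 CPM (−1.31 ± 0.03), while Pard6g rose from 5.42 to 54.0 CPM (3.32 ± 0.06). In DKO cells Pard3 (−1.32 ± 0.04) and Afdn (180 to 84.3 CPM) fell too, Pard6g went from 20.5 to 27.4 CPM and Fyn from 47.4 to 46.5 CPM. Pard6b fell in both lines (24.1 to 10.54 CPM in Null and 38.5 to 15.9 CPM in DKO, −1.27 ± 0.06 in the latter), and Jam3 rose in DKO cells (0.66 ± 0.05) and stood at 30.7 and 31.2 CPM in Null. Between the lines 8 were higher and 13 lower in untreated DKO cells (median −0.22, or −0.18 with a gene at the detection limit set to its bound, or −0.34 with library size alone as the scale; all genes 33.4% and 34.1%, median −0.02). Of the junction genes that averaged 1 CPM or more and passed the threshold, Pard6g was the most changed, higher in DKO cells (1.92 ± 0.06, 20.5 against 5.42 CPM). Among those lower were F11r, the gene of junctional adhesion molecule A (−1.56 ± 0.04, 49.7 against 16.9 CPM), and cingulin, Cgn (−1.47 ± 0.07, 32.4 against 11.7 CPM). After etoposide 9 were higher and 10 lower (median 0.09; all genes 36.9% and 35.2%, median −0.00), with Fyn higher in DKO (1.41 ± 0.04) and F11r lower (−1.73 ± 0.04).

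Of 9 genes described as targets or partners of Sox11 or Sox4, 5 were tested, and in each of the 4 comparisons 1 was higher, 3 lower and 1 not past the threshold. Of all genes 41.7% were higher and 36.8% lower with etoposide in Null, 44.0% and 31.3% in DKO cells, and 33.4% and 34.1% between untreated and 36.9% and 35.2% between treated lines. Tubb3, which encodes a neuronal tubulin, was at 54.9 CPM in untreated Null and 14.9 CPM in untreated DKO cells (−1.88 ± 0.06), and at 62.7 and 29.7 CPM after etoposide (−1.08 ± 0.05). Ncam1, a cell adhesion gene, and Tead2, a Hippo pathway transcription factor gene, were lower in untreated DKO cells by smaller amounts (−0.36 ± 0.04 and −0.19 ± 0.03). Map2, a neuronal microtubule protein gene, was higher, 92.5 against 44.0 CPM (1.07 ± 0.04). The medians were −0.19 without and −0.15 after etoposide for DKO against Null, and −0.41 in Null and −0.37 in DKO cells for etoposide against untreated, beside −0.02, −0.00, 0.07 and 0.14 over all genes in the same order. With library size alone as the scale the median was −0.31 between untreated lines. On that scale the etoposide medians were −0.24 in Null and −0.098 in DKO cells, with 2 genes higher in each.

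Of 38 transcription factor genes of embryonic mesenchyme 31 were tested. In untreated DKO cells 18 were higher and 11 lower, beside 33.4% and 34.1% of all genes, with a median of 1.23 (all genes −0.02), or 1.16 with genes at the detection limit set to their bound. Hand2 showed the pattern of the members, 18.8 CPM in untreated Null against 0.0724 CPM in untreated DKO cells (−8.15 ± 0.31), and Foxd1 (47.8 against 2.79 CPM, −4.08 ± 0.09) and Shox2 (72.0 against 12.7 CPM, −2.50 ± 0.06) were lower too. Lhx9 (4.27 against 67.5 CPM, 3.98 ± 0.07), Lmx1b (0.241 against 2.88 CPM, 3.57 ± 0.31) and Tfap2a (0.403 against 4.78 CPM, 3.55 ± 0.39) were higher in DKO cells. After etoposide 17 were higher and 10 lower (median 0.49; all genes 36.9% and 35.2%, median −0.00), with Msx1 at 5.24 CPM in Null and 25.6 CPM in DKO cells (2.30 ± 0.09). Etoposide moved 12 up and 15 down in Null cells (median −0.43, or −0.27 with library size alone as the scale; all genes 41.7% up, 36.8% down, median 0.07) and 6 up and 17 down in DKO cells (median −0.51, or −0.23 on that scale; all genes 44.0% up, 31.3% down, median 0.14), with Runx2, the bone regulator, lower in both (−2.75 ± 0.07 and −2.53 ± 0.06). Twist2 and Tfap2b also fell in both, Twist2 from 55.6 to 15.1 CPM in Null (−1.89 ± 0.06) and from 52.2 to 18.9 CPM in DKO cells and Tfap2b from 8.97 to 2.71 and from 64.7 to 12.7 CPM (−2.35 ± 0.07 for the latter), while Meox1 rose in both (4.79 ± 0.31 and 3.5 ± 0.42).

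The fibroblast label was compared with marker genes. All 11 fibroblast markers were in the table, and their summed level in the untreated Null libraries was 7099, 7092 and 7199.6 CPM and in the untreated DKO libraries 11674, 12259.6 and 11742 CPM. After etoposide it was 4065, 3978 and 3970.4 CPM in Null and 5359.6, 5448 and 5138 CPM in DKO libraries. The marker sum was thus higher in DKO than in Null cells and lower after etoposide in both, and its part in the result was not tested. By CPM, which is not corrected for gene length, Vim was highest in Null cells (2390.3 CPM untreated and 1632 CPM treated) and Fn1 in treated DKO cells (1531 CPM), while in untreated DKO cells Vim (2696 ± 49.9 CPM) and Fn1 (2681 ± 160 CPM) did not differ beyond their SD. Single markers differed: Thy1 was at 4.21 CPM in untreated Null and 0.0365 CPM in untreated DKO cells, while Pdgfra was at 20.9 against 197 CPM and Postn at 8.69 against 149 CPM. Fap was at most at 24 counts in any library and at 2 counts or fewer in untreated DKO libraries.

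Marker lists of 6 other cell types had far lower sums, given here as group means in the order untreated Null, untreated DKO, treated Null and treated DKO. The 7 epithelial markers summed to 16.3, 36.6, 25.1 and 16.1 CPM, most of it Krt19, with Krt5 and Krt14 at 3 counts or fewer in untreated cells. The 5 endothelial markers summed to 0.130, 0.133, 2.65 and 1.19 CPM, with Cdh5 and Tie1 at 3 counts or fewer in untreated cells and Pecam1 or Tek the most abundant. The 4 skeletal muscle markers summed to 2.12, 0.397, 36.8 and 2.69 CPM, nearly all Des, with Myod1, Myog and Myh3 at 3 counts or fewer in untreated cells. The 8 neural markers summed to 6.97, 1.34, 4.39 and 1.03 CPM, mostly Sox2 except in treated DKO cells, where Syp was highest, with Sox1 and Neurod1 at 3 counts or fewer in untreated cells. The 4 chondrocyte and bone markers summed to 18.7, 7.68, 51.2 and 6.99 CPM, led by Col2a1 in Null and Acan in DKO cells, with Sp7 at 3 counts or fewer in untreated cells and Col2a1 at 10.8 CPM in untreated Null and 0.385 CPM in untreated DKO cells. These 3 sums were lower in DKO than in Null cells in both treatments, as the members were, and their part in the result was not tested. The 4 adipocyte markers summed to 5.50, 14.6, 24.4 and 39.1 CPM, nearly all Cebpa, with Plin1 and Lpl at 3 counts or fewer in untreated cells. Of single immune markers, Cd68 was at 1.44, 1.56, 11.96 and 3.08 CPM, and Ptprc, Adgre1 and Cd3e had 3 counts or fewer in untreated cells, as had Sox10 and Foxd3 of the neural crest.

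**Figure D5:**
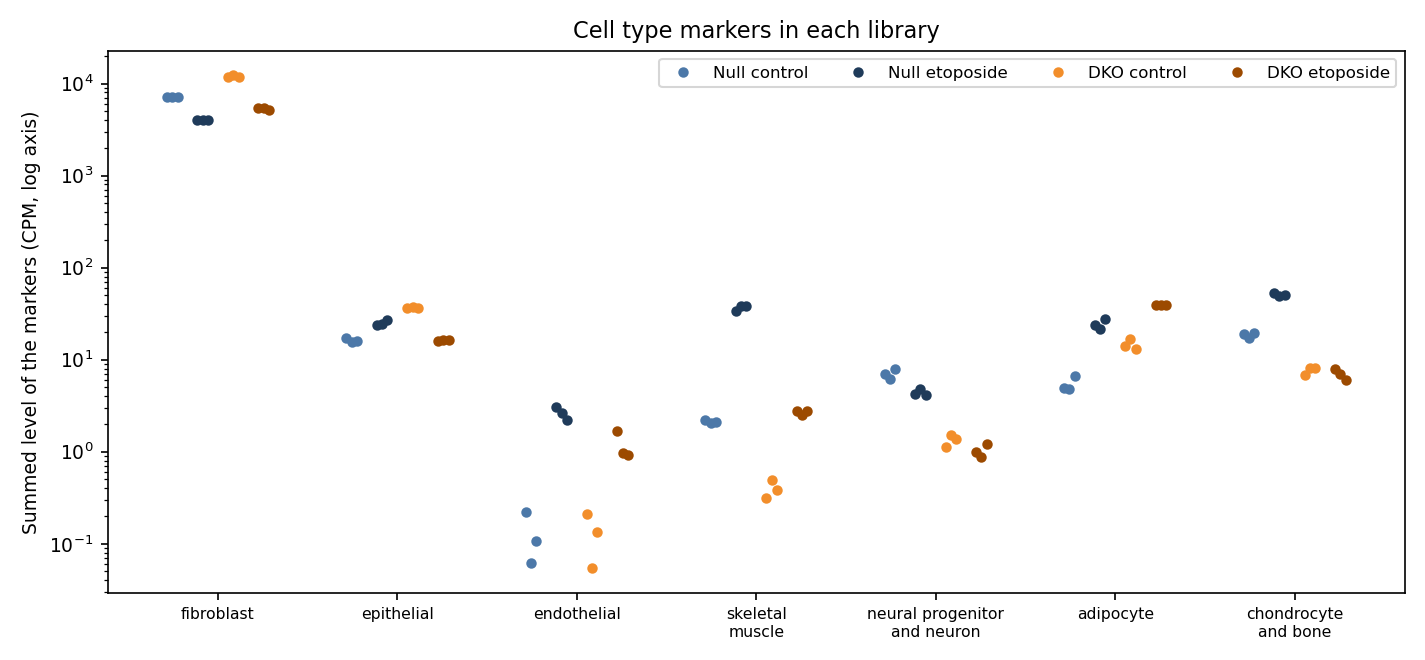
Summed level of 7 marker lists in each of the 12 libraries, in CPM on a log axis, by group; each point is 1 library. The fibroblast sums lie between 3970.4 and 12259.6 CPM, above those of all other lists.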

How the data were processed

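The authors deposited 1 table of counts of read pairs per gene symbol, without normalization, from total RNA libraries of a strand-marking kit with ribosomal depletion. Per the labels reads were aligned to mm10 with HISAT2 and counted with featureCounts, whereas the methods name HTSeq, whose 5 summary lines end the table. These lines took 20.2 to 27.3% of the pairs as no feature, 0.428 to 0.513% as ambiguous and 15.9 to 20.5% as not unique, and were left out.

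From these counts, all 12 columns were used. GENCODE M21 (GRCm38) held 23350 of the symbols directly and 656 under a synonym, and 413 were not found in it. These counts fall just short of 24421 because a symbol listed more than once was matched only once. Genes kept by filterByExpr (15220, all 3 members included) were scaled by TMM (factors 0.884 to 1.09) and fitted in 1 model with edgeR 4.0.16 in R 4.3.3 by its quasi-likelihood test, with Benjamini-Hochberg adjustment over all genes and a threshold of 0.05. The members passed the filter through the Null groups, where they are high. The variance between replicates of 1 group was 11.1 to 23.3 times the variance of counting error (chi-square per degree of freedom, 12 pairs of libraries). Replicate numbers were not used as a block: deviations from group means correlated at −0.0320 to 0.0429 in 18 pairs of equal number. The code was tested on simulated data.

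Alternatives were DESeq2 1.42.0, limma-trend (limma 3.58.1), other scales and filters, the replicate block, only the 6 libraries compared, and each library left out. The members and lists were chosen with earlier results of these data known. Named by rule were the members, the targeted genes and their family, relatives, overlapping and nearest genes, the 5 genes most like each member, the next 3 genes by fold change, and the most expressed genes off in 1 line. Of the other lists, the genes named were taken after their values were seen, from up to 3 largest changes each way past the threshold among genes that averaged 1 CPM or more. Marker genes, Mab21l2 and Hand2 among the 91 genes were likewise singled out after their values were seen. A few single genes and 2 marker sums are not reported here.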

Additional observations from a re-analysis of the deposited data

Results flagged for a closer look

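Among the genes whose response to etoposide is given here for both lines, 5 were found in which each treated library of Null cells lay on one side of the untreated ones and each treated library of DKO cells on the other, and the difference between the lines was not tested in any of them. The log2 fold changes of etoposide against untreated in Null and DKO cells were 1.42 and −1.71 for Sox4, −1.09 and 0.29 for Sox12, 1.35 and −1.63 for Mitf, −1.08 and 0.35 for Lrba, and −0.11 and 0.22 for Emp2. With library size alone as the scale Emp2 was 0.054 in Null cells, so that it no longer moved in opposite directions, and with DESeq2 its change there did not pass the threshold.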

How the results depend on the processing

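Of the 169 single-gene fold changes followed besides the members, not all of them printed, 164 kept direction and side of the threshold under every alternative, 2 reversed and 4 lost their call somewhere, 1 of them both. With library size alone as the scale Emp2 in Null was 0.054, Mb21d2 in DKO 0.061 and Tmem47 in DKO 0.031; the cause was not tested. That scale shifted the median of all genes by 0.17 for etoposide in Null (7656 higher, 4350 lower), 0.27 in DKO (9351 and 2975) and −0.12 between untreated lines (3997 and 6473), and leaving out the filter shifted the first pair by 0.24 and 0.12. It moved the levels of Mab21l1 to 13.9 and 43.8 CPM in Null without and with etoposide, Tmem47 to 29.9 CPM in treated Null and Sox11 to 92.7 and 35.6 CPM, and medians near Mab21l1 to −0.057 and 0.17 (turned) for etoposide in Null and DKO and −0.36 between untreated lines, near Tmem47 to −1.01 for etoposide in DKO, and near Sox11 to 0.28, 0.55 and −0.17. With 5 Mb windows the medians for etoposide in Null, in DKO, and between the lines untreated and treated were −0.13, −0.16, −0.10 and 0.0037 near Mab21l1 and −0.40, −0.23, 0.43 and 0.74 near Tmem47; near Sox11 they were 0.25 in Null and 0.11 and 0.13 between the lines. Sox11 in DKO was −0.67 with DESeq2 and −0.69 without the filter. Between treated lines Tmem47 was −7.60 by limma-trend. Other level limits gave 157, 40 and 37 genes off in DKO (1 and 0.5, 5 and 0.5, 2 and 0.2 CPM) and 14, 0 and 1 off in Null. Leaving out 1 library gave 91 to 97 genes off in DKO; 11629 to 11879 genes past the threshold for etoposide in Null, 10947 to 11287 in DKO, 9781 to 9884 between untreated and 10510 to 10607 between treated lines; for etoposide in Null 1.42 to 1.53 for Mab21l1, −0.53 to −0.43 for Tmem47 and −1.57 to −1.52 for Sox11, in DKO −0.22 to 0.34 (reversed at −0.09, −0.11 and −0.22), −0.53 to −0.04 and −0.98 to −0.31, between untreated lines −6.91 to −6.44, −8.30 to −7.85 and −8.72 to −8.21, and between treated lines −8.31 to −7.75, −8.01 to −7.81 and −7.84 to −7.28. The replicate block gave 11873, 11374, 10206 and 10886 genes past the threshold, and without pairing 11940, 11459, 10263 and 10963. Tmem47 in DKO has no value from the 6 DKO libraries alone, where the filter drops it. Other scales for the lists, chosen after seeing the data, kept the number past the threshold in each list within 1.5 times, but not in each direction: with library size alone, junction genes higher with etoposide in Null went from 5 to 8, Tmem47 relatives there from 1 to 2, Sox11 targets or partners from 1 to 2 in Null and in DKO, and Mab21 genes lower in DKO from 1 to 0. List medians that this scale moved by over 1.5 times were, for etoposide in Null, Sox genes 0.44, Tmem47 relatives 0.054 (turned), targets −0.24 and mesenchyme factors −0.27; in DKO, Sox genes −0.38, relatives −0.41, junction genes −0.17, targets −0.098 and mesenchyme factors −0.23; and between untreated lines, junction genes −0.34 and targets −0.31. DESeq2's size factors gave −0.068 for the relatives in Null and 0.028 for junction genes between treated lines.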
